A study of Homo sapiens with 4 samples.

Results

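The G1/S cyclins, their kinases and RB were examined in U266, a human multiple myeloma cell line of plasma cell type that the paper describes as P53-mutated, treated for 24 h with PBS (control) or with trabectedin, an antitumour drug that attaches to DNA. The members were fixed by name, CCND1, CCND2, CCND3, CDK4, CDK6, CDK2, CCNE1, CCNE2, RB1 and CDKN2C. Each was represented by its transcript cluster (a set of probes summarized together) with 1 gene symbol and the highest mean. Of these 10 genes 9 had such a cluster, among 22411 genes in all, and CDKN2C was not analysed here. RNA of 2 control and 2 trabectedin samples, from cells of 2 experiments by the methods, was hybridized to Affymetrix Human Transcriptome Arrays. The controls are labelled untreated, whereas the protocol names PBS. The labels of the treated samples give 2.5 nM, whereas the treatment protocol gives 2.5 μM. All groups are cultures of this single line, so that nothing here speaks for other myeloma cells.

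Progression from G1 into S phase starts with the D cyclins, which bind CDK4 or CDK6 and direct them to phosphorylate RB. Phosphorylated RB releases the E2F factors, which turn on the E cyclins and the genes of DNA replication, and cyclin E with CDK2 completes the phosphorylation of RB. CDKN2C, an inhibitor of the INK4 family, blocks CDK4 and CDK6. Overexpression of a D cyclin is a common feature of myeloma, and in U266 an inserted piece of the immunoglobulin heavy chain locus lies beside CCND1.

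The upstream DNA of the members was taken from the RefSeq promoter table (GRCh38.p14), with 250 bases before and 50 bases after each start. The search covered 11 windows of 6 members (CCND3, CDK4, CDK6, CCNE1, RB1 and CDKN2C). The windows of CDK6, CDK4 and CCNE1 are shown. CDK6 and CDK4 are the alternative kinase partners of the D cyclins, and CCNE1 is the E cyclin among the windows read. They lie at chr7:92836524-92836823 (minus strand), chr12:57752261-57752560 (minus strand) and chr19:29811741-29812040 (plus strand), and capitals mark each GC box (GGGCGG, on either strand).
CDK6: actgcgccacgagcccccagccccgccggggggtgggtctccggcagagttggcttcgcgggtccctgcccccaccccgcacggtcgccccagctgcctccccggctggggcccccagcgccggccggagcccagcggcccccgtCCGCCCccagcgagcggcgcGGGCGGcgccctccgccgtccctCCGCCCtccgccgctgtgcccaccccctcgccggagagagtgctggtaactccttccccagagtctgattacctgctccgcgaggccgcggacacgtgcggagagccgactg
CDK4: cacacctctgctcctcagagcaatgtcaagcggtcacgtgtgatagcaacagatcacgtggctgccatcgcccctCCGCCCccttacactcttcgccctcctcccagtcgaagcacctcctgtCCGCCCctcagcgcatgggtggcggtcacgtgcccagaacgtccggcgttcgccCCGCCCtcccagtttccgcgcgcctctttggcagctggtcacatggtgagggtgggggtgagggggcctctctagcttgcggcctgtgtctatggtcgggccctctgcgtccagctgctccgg
CCNE1: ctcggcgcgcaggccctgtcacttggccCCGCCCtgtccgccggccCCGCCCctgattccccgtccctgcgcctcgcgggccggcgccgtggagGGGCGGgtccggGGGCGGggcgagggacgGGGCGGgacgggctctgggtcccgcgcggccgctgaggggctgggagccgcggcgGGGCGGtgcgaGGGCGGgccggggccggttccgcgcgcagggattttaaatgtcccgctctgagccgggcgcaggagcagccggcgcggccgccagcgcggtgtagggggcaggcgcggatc
The E2F letters searched on both strands, TTTCCCGC, TTTCGCGC, TTTGCCGC and TTTGGCGC, were in 0 of the 11 windows, against 3.31% of 35116 promoter windows on all chromosomes. No window of CCNE2, CCND1, CCND2 or CDK2 was searched, so that the count of E2F matches says nothing of these genes. The GC box, for which there was no E2F match to overlap, was in 7 of the 11 windows, against 45.0% of all. It occurred 3 times in the window shown of CDK6, 3 times in that of CDK4 and 7 times in that of CCNE1, whose GC contents were 78.0%, 66.0% and 81.0%. A further window of CDK6 (chr7:92833910-92834209), which is not shown, had a GC content of 68.7% and 0 GC boxes. The window of RB1 (chr13:48476200-48476499) belongs to a start inside the gene and is not shown.

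The arrays carry the values as log2 after RMA, and their number limits the precision. The median over all features was 5.19 to 5.37, and 843 to 899 features on each array lay above 16, the log2 limit of a 16-bit scanner. How such values arose is not stated in the labels or the methods, and whether the brightest genes, CCND1 among them, were near saturation was not tested. Log2 levels of different genes come from different probes, so that only their differences between groups are compared. All 9 measured plasma cell markers, among them SDC1, TNFRSF17 and JCHAIN, were above 6 on every array (range 6.14 to 17.53). Markers of other cells lay at 4.20 to 6.89 (4 of B cells), 3.73 to 6.00 (5 of T and NK cells) and up to 8.67 (5 of monocytes, of which only CD68 was above 6 on every array). The mean of the plasma cell markers was 12.45 and 12.24 in control and 12.07 and 12.08 with trabectedin, and the part of these lower means in the results was not tested.

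With trabectedin CCNE2 and CDK2, the late partners of the G1/S step, had higher values, and CDK6, an early kinase, had lower values, each by more than 1.5-fold. The D cyclins CCND1 and CCND2 were lower and CCND3 higher by less than that, and CDK4, CCNE1 and RB1 differed by 1.16-fold or less. By limma without a block, with Benjamini-Hochberg adjustment over all genes, 0 of the 9 members passed at an adjusted p under 0.05. The same held for 0% of all genes, so that none is called changed by this fit. With the replicate number as a block 3 members passed, against 6.21% of all genes, as given below with its limit. At an unadjusted p under 0.05 there were 5 members (CCND2, CCND3, CDK6, CDK2 and CCNE2) by limma without a block, against 14% of all genes. There were 4 by the methods' t-test, against 10.7%. At least 1.5-fold higher were 2 members, against 2.8% of all genes, and at least 1.5-fold lower was 1, against 4.63%. Both trabectedin arrays lay above both control arrays in 4 members, against 35.8% of all genes, and below in 3, against 13.5%. The median log2 fold change was 0.17 over the 9 members and 0.10 over all genes. An exact two-sided permutation test of these 4 arrays reaches 0.333 at the lowest. All cultures are of a single line, so that p-values measure only the spread between these cultures. RNA came from whole cultures, so that a different share of cells in a cycle phase and a different RNA level per cell cannot be told apart. By flow cytometry, at a later time and a lower dose for U266, the paper reports S-phase arrest with fewer cells in G0/G1. The part of this in the RNA values was not tested.

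**Figure D1:**
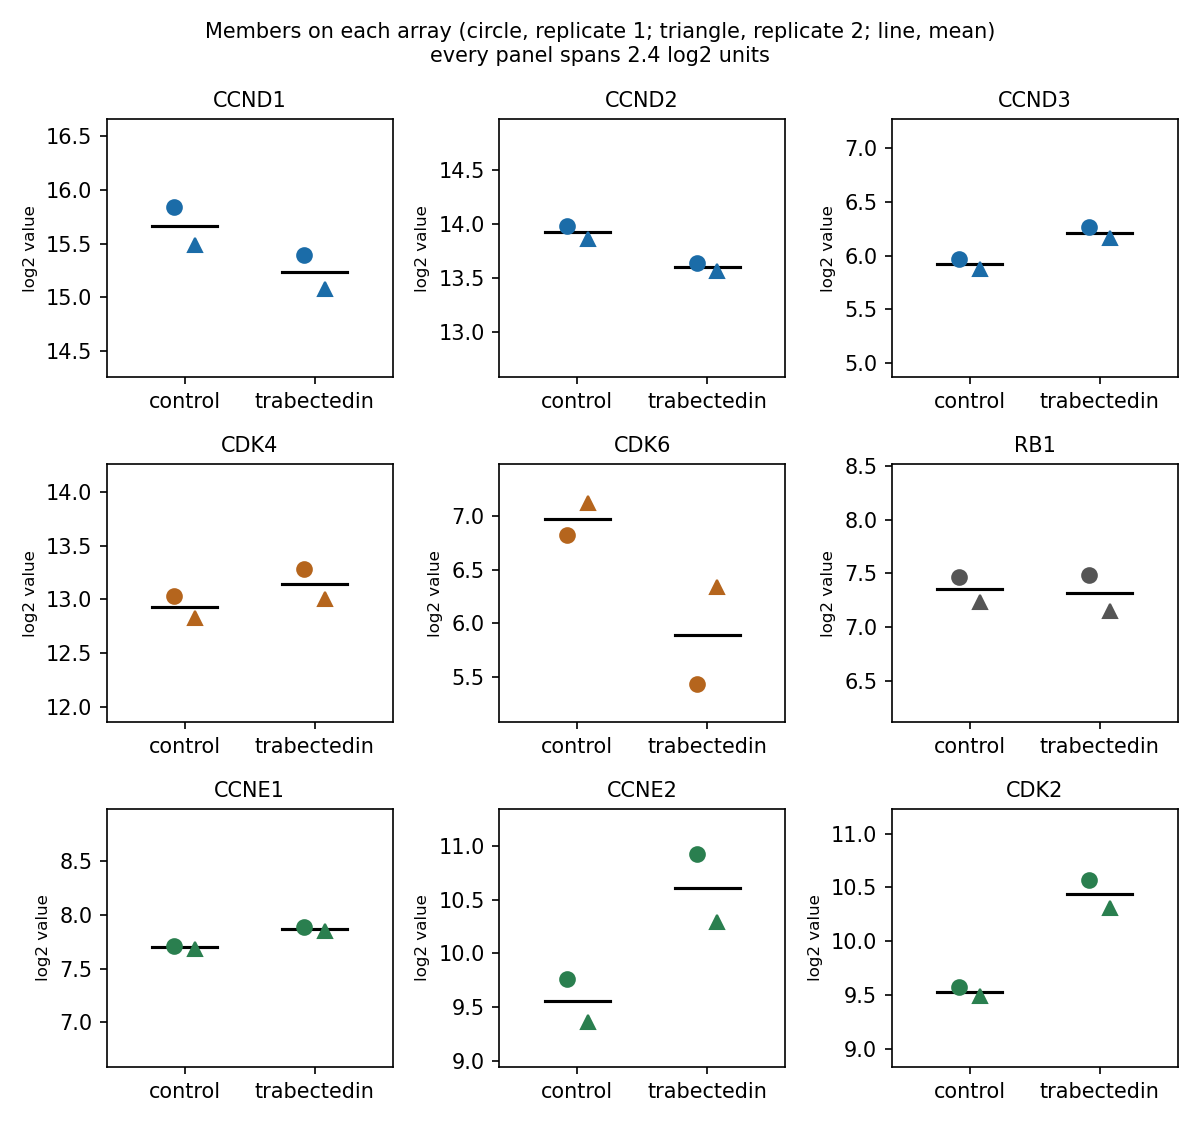
Log2 value (vertical axes, each panel spanning the same number of log2 units) of the 9 measured members on each array, by group. Points are arrays (circle, replicate 1, and triangle, replicate 2) and lines are group means. The groups do not overlap in 7 panels, and they overlap for CDK4 and RB1.

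Among the D cyclins, CCND1 was lower with trabectedin. Its log2 values, here and below in the order replicate 1 and replicate 2, were 15.84 and 15.49 in control against 15.40 and 15.08 with trabectedin. The groups did not overlap, but the higher treated array lay only 0.092 below the lower control array, less than the distance of 0.35 between the control arrays, and they overlapped after a second quantile normalization. Trabectedin minus control was -0.44 for replicate 1 and -0.41 for replicate 2. No source used here ties these numbers to an experiment. The log2 fold change was -0.43 (standard error 0.19, 95% interval -0.92 to 0.06, limma adjusted p = 0.402), which is 1.35-fold lower. It was -0.25 without control replicate 1 and -0.60 without control replicate 2.
CCND2, the D cyclin that MAF factors raise in part of myelomas, had 13.99 and 13.86 in control and 13.63 and 13.57 with trabectedin. Its groups lay apart by 0.23, more than either group's inner distance. Its log2 fold change was -0.33 (standard error 0.11, 95% interval -0.62 to -0.03, adjusted p = 0.321), or 1.25-fold lower.
CCND3, the D cyclin widely used by lymphoid cells, went the other way, from 5.96 and 5.87 to 6.26 and 6.16. Both control values of CCND3 lay within the range of the T and NK cell markers, 3.73 to 6.00. The log2 fold change was 0.29 (standard error 0.11, adjusted p = 0.357), or 1.23-fold higher, and it was 0.089 after scaling to ribosomal protein genes. That scaling shifted the median of all genes by -0.20. The log2 fold changes of CCND3 and CCND1 differed by 0.72. Tested on the within-array differences, this gave an exact two-sided permutation p = 0.333, the smallest that 4 arrays allow, as it did for all 4 pairs compared (adjusted p = 0.333 for each).

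Of the kinases that the D cyclins bind, CDK6 was lower and CDK4 overlapped between the groups. CDK6 had 6.82 and 7.12 in control and 5.44 and 6.34 with trabectedin. The value of 5.44 lay within the range of the T and NK cell markers, 3.73 to 6.00. Both treated arrays lay below both controls, by 0.49 at the nearest, while the treated arrays were 0.90 apart. The log2 fold change of CDK6 was -1.09 (standard error 0.33, 95% interval -1.94 to -0.23, adjusted p = 0.26), or 2.12-fold lower. It was -0.64 without trabectedin replicate 1 and -1.54 without trabectedin replicate 2, so that its size rests on which treated culture is read. CDK4, which shares the D cyclins with CDK6, had 13.04 and 12.83 in control and 13.29 and 13.01 with trabectedin. By replicate number it was higher with trabectedin by 0.25 and 0.18. Its groups overlapped, and the log2 fold change was 0.21 (standard error 0.15, 95% interval -0.19 to 0.62, adjusted p = 0.576). It was 0.075 without trabectedin replicate 1, 0.35 without trabectedin replicate 2 and 0.010 after scaling to ribosomal protein genes. The log2 fold changes of CDK4 and CDK6 differed by 1.30, most of which was the lower value of CDK6 (exact permutation p = 0.333, n = 2 per group).
The paper followed protein of cyclin D1 and of CDK6 in U266 by Western blot and describes both as lower with trabectedin, while the legend of those blots names CDK4 in place of CDK6. On the arrays the RNA values of CCND1 and CDK6 were lower and those of CDK4 overlapped, none of them past the test without a block. Protein was not measured in these files, and the time of the blots is not given in the sources used here.

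RB1, which encodes the RB protein that these kinases phosphorylate, had nearly the same mean in both groups. Its values were 7.47 and 7.23 in control and 7.48 and 7.15 with trabectedin. The groups overlapped, and the distance between replicates was larger than that between means. The log2 fold change was -0.034 (standard error 0.17, adjusted p = 0.933), with a 95% interval of -0.48 to 0.41 that leaves room for a change in either direction. Its sign turned to 0.08 without control replicate 1 and to 0.13 without trabectedin replicate 2.

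CCNE2, an E cyclin and itself an E2F target, had the highest log2 fold change of the members. It went from 9.76 and 9.36 in control to 10.93 and 10.29 with trabectedin. The groups lay 0.53 apart, while the treated arrays differed by 0.63. Its log2 fold change was 1.05 (standard error 0.26, 95% interval 0.36 to 1.74, adjusted p = 0.201), or 2.07-fold higher, the 27th highest of all genes. It was 0.73 without trabectedin replicate 1.
CCNE1, the other E cyclin, had 7.71 and 7.68 in control and 7.89 and 7.85 with trabectedin. Replicates were within 0.04 of each other and the groups did not overlap, yet the log2 fold change was 0.17 (standard error 0.10, 95% interval -0.10 to 0.45, adjusted p = 0.521). When scaled to ribosomal protein genes, it turned to -0.031. The log2 fold changes of CCNE2 and CCNE1 differed by 0.88 (exact permutation p = 0.333, n = 2 per group).
CDK2, the kinase of the E cyclins, had 9.57 and 9.48 in control and 10.57 and 10.30 with trabectedin. The gap of 0.73 between the groups was wider than the distance between replicates of either. Its log2 fold change of 0.91 (standard error 0.14, 95% interval 0.55 to 1.27, adjusted p = 0.098) is 1.88-fold higher, the 58th highest of all genes, and had the lowest adjusted p of the members. It lay between 0.78 and 1.05 when each array was left out in turn. The log2 fold changes of CDK2 and CDK6 differed by 2.00 (exact permutation p = 0.333, n = 2 per group).

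**Figure D2:**
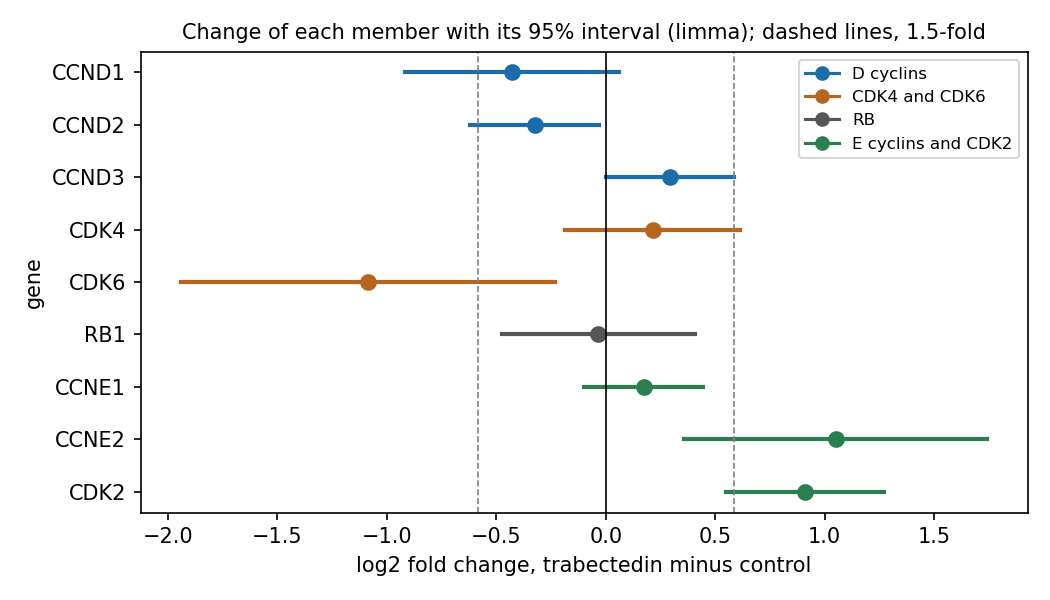
Log2 fold change, trabectedin minus control (horizontal axis), of each measured member by role. Points are the limma estimates, bars their 95% intervals (n = 2 arrays per group) and dashed lines 1.5-fold. CCNE2 (1.05), CDK2 (0.91) and CDK6 (-1.09) lie beyond 1.5-fold, and the intervals of CCND1, CDK4, RB1 and CCNE1 include 0.

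The other genes of the pathway were read from lists by role, and by limma 0 of them passed. Of 6 CDK inhibitors 1 was at least 1.5-fold higher, against 2.8% of all genes, and 0 lower (median log2 fold change 0.26, against 0.10 over all genes). This was CDKN2B, an INK4 inhibitor of CDK4 and CDK6, with 6.87 and 6.999 in control and 7.39 and 7.67 with trabectedin. It was higher by 0.60 on the log2 scale (standard error 0.14, adjusted p = 0.185). CDKN1A, which encodes p21 and was named after its value was seen, had 8.29 and 8.87 in control and 8.90 and 9.24 with trabectedin, higher by 0.49 on the log2 scale (standard error 0.24, adjusted p = 0.452). Its lower treated array lay just above its higher control. The RB relatives RBL1 (-0.025, adjusted p = 0.932) and RBL2 (-0.57, adjusted p = 0.426) were within 1.5-fold.
Among 6 measured genes that activate or restrain CDKs, 1 was at least 1.5-fold higher, against 2.8% of all genes, and 0 lower, against 4.63% (median 0.27). The groups did not overlap in 3 that were higher, against 35.8% of all genes, and in 1 that was lower, against 13.5%. CDC25A, the phosphatase that removes inhibitory phosphate from CDK2, went from 8.73 and 8.48 to 9.44 and 9.07 (0.65, standard error 0.18, adjusted p = 0.231). Within 1.5-fold but without overlap, WEE1 was higher (0.57, adjusted p = 0.243) and MNAT1 lower (-0.56, adjusted p = 0.272). Both were named after their values were seen. Among 9 turnover genes of cyclins and inhibitors, 2 were at least 1.5-fold lower, against 4.63% of all genes, and 0 higher (median -0.26). GSK3B, a kinase that marks cyclin D1 for degradation, went from 11.96 and 11.83 to 10.09 and 10.93 (-1.38, standard error 0.30, adjusted p = 0.16). FBXW7, the ubiquitin ligase subunit that recognizes cyclin E, went from 9.54 and 9.67 to 8.55 and 8.70 (-0.98, standard error 0.12, adjusted p = 0.0778). The groups of both genes did not overlap. These are long genes of 273 kb and 216 kb, and of all 3206 genes over 100 kb 26% were at least 1.5-fold lower, or 51.1% of the 1577 of them with a mean above the median of all genes.
Of 13 measured S phase genes downstream of RB, 6 were at least 1.5-fold higher, against 2.8% of all genes, and 0 lower (median 0.56, against 0.10). The groups did not overlap in 7, all higher, against 35.8% of all genes. PCNA, the sliding clamp of replication, was at 0.77 (standard error 0.17, adjusted p = 0.169), the licensing factor CDT1 at 0.70 (standard error 0.16, adjusted p = 0.173) and the loader CDC6 at 0.66 (standard error 0.29, adjusted p = 0.402). The E2F targets MYBL2 (-0.046, adjusted p = 0.957) and TYMS (0.029, adjusted p = 0.968), named after their values were seen, lay near 0 with groups that overlapped. Of 6 measured regulators upstream of D cyclins 1 was at least 1.5-fold lower, against 4.63% of all genes. This was IRF4, a plasma cell transcription factor (-0.80, standard error 0.37, adjusted p = 0.424), which is also on the plasma cell marker list. It had 14.85 and 13.90 in control and 13.84 and 13.32 with trabectedin, so that its groups lay only 0.063 apart.

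**Figure D3:**
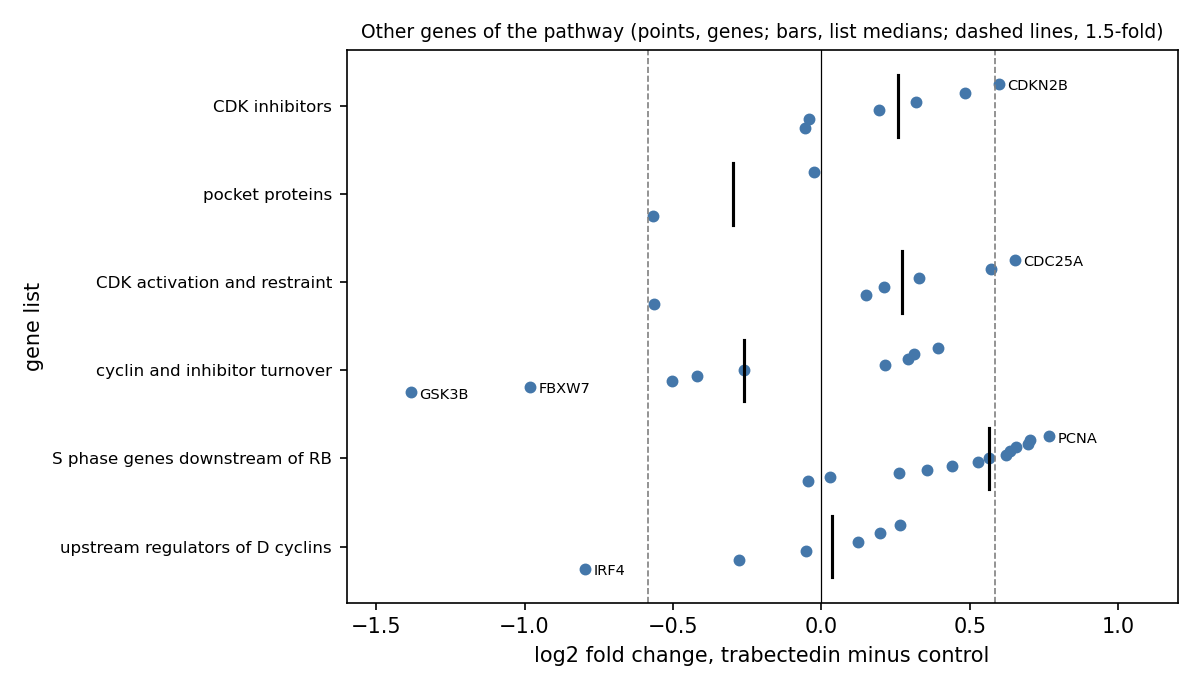
Log2 fold change, trabectedin minus control (horizontal axis), of the measured genes in 6 lists of the pathway. Points are genes, bars are list medians and dashed lines mark 1.5-fold. The S phase genes have a median of 0.56, and GSK3B (-1.38) and FBXW7 (-0.98) are the lowest points.

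The members differ in length, which the choice of genes did not use. By RefSeq spans on GRCh38.p14, CDK6 is the longest at 232 kb (chromosome 7, 92604921 to 92836573), followed by RB1 at 178 kb (chromosome 13, 48303751 to 48481890) and CCND3 at 115 kb (chromosome 6, 41934933 to 42050035). The other measured members span 4.58 kb (CDK4, chromosome 12, 57747727 to 57752310) to 31.6 kb (CCND2, chromosome 12, 4273762 to 4305353), with CDK2 at 5.96 kb, CCNE1 at 12.3 kb, CCND1 at 13.3 kb and CCNE2 at 16.5 kb. Of the 3 members over 100 kb, 1 was at least 1.5-fold lower, against 26% of 3206 genes of that length. All 3 had means above the median of all genes. Of the 1577 long genes with such a mean, 51.1% were at least 1.5-fold lower. Of the shorter genes 1.07% were. The median log2 fold change of the genes over 100 kb was -0.083, and that of the 1577 was -0.60. CDK6, at -1.09, was below both medians, whereas RB1, at -0.034, and CCND3, at 0.29, were above both. The part of gene length in these values was not tested.

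**Figure D4:**
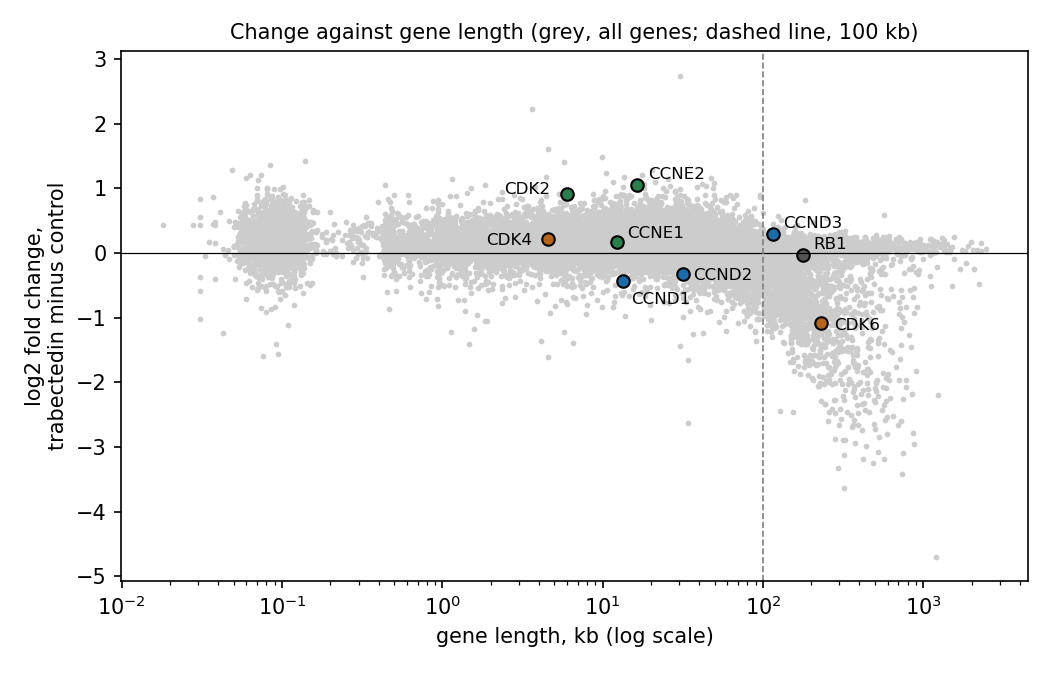
Log2 fold change, trabectedin minus control (vertical axis), against gene length in kb (horizontal axis, log scale). Grey points are all genes with a length, coloured points the 9 measured members and the dashed line marks 100 kb. CDK6 lies at -1.09 among long genes with lower values, while RB1 (-0.034) lies near 0 and CCND3 (0.29) above 0.

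Genes next to the members were read in the same way. Of 9 measured genes around CCND1, 0 were at least 1.5-fold higher or lower, and their log2 fold changes ran from -0.37 (PPFIA1, adjusted p = 0.338) to 0.23 (FADD, adjusted p = 0.659). Of these, FGF19, FGF4, FGF3 and ANO1 lay within the range of the T and NK cell markers, 3.73 to 6.00, on every array. MYEOV, which lies on the side of CCND1 away from the FGF genes, was at 0.10 (adjusted p = 0.723), and LTO1 at 0.085 (adjusted p = 0.758). LPAR6, which overlaps RB1, was at 0.10 (adjusted p = 0.692), and ITM2B, next to RB1, was at 0.26 (adjusted p = 0.437). The values of LPAR6 also lay within the range of the T and NK cell markers. FAF1, which lies 0.478 kb from CDKN2C and spans 523 kb, went from 11.57 and 11.19 to 7.40 and 9.19, a difference of -3.09 on the log2 scale (standard error 0.60, adjusted p = 0.14). Its value says nothing of CDKN2C itself, a gene of 13.9 kb on chromosome 1 (50960745 to 50974634).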

How the data were processed

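Per the labels and the methods, RMA in Expression Console (Affymetrix) made the values, and the authors deposited them as log2 for 70523 features, of which 23781 have 1 gene symbol in the platform annotation, 1543 several and 45199 none. No version of the tool, annotation or genome build is given in the sources used here. Symbols were matched to RefSeq (GRCh38.p14) by gene ID, symbol or synonym for 23777 features. Each of 22411 genes was represented by its cluster with the highest mean over the 4 arrays. Groups were compared by limma 3.58.1 (lmFit and eBayes, no block) in R 4.3.3, and p-values were Benjamini-Hochberg adjusted over all genes. Intervals are 95% intervals of limma. Within-array differences of 4 pairs of members were compared by an exact permutation test. Folds are antilogs of the difference between group means on the log2 scale. The fit was tested on simulated data.
The members and lists were chosen with earlier results of these data known. Named genes were all members, then of each list up to 3 genes per direction that were at least 1.5-fold apart without overlap (the first 2 of a list with none), and neighbours of CCND1, RB1 and CDKN2C. The GC box was added after the data were seen. CDC37 and RBX1 share a cluster with another symbol, and these and some other list genes are not analysed here. Alternatives were leaving out each array, the methods' t-test, a block for the replicate number, scaling to 55 ribosomal protein genes, the mean of a gene's clusters, a second quantile normalization, 2-fold as threshold, a trend in limma's variance, and only genes above the median of all.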

Additional observations from a re-analysis of the deposited data

How the results depend on the processing

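Over 9 members and 11 alternatives, 93 of 99 log2 fold changes kept their direction and their side of the threshold, 3 kept the direction and passed, and 3 turned. The count overstates the stability. The block, the genes above the median, the mean of clusters, the variance trend and the t-test left every member's fold change as it was. No direction could turn there. Where a setting called 0 of all genes, the side of the threshold could not move. CCNE1 turned to -0.031 when scaled to ribosomal protein genes, and RB1 turned to 0.08 without control replicate 1 and to 0.13 without trabectedin replicate 2 (range -0.20 to 0.13 with each array left out). With the replicate number as a block, limma passed 3 members, CCNE2 (adjusted p = 0.0194), CDK2 (adjusted p = 0.0224) and CDK6 (adjusted p = 0.0328), against 6.21% of all genes. The methods name 2 experiments, but no source used here ties the replicate number to them. The difference of replicate 2 and replicate 1 correlated between the groups at r = 0.56 over 22411 genes, which are not independent. The block left the fold changes as they were. Members past an adjusted p under 0.05 were 0 with every array left out. Members at least 1.5-fold lower were 1 to 2 when each array was left out, with CCND1 added without control replicate 2 (-0.60) and without trabectedin replicate 1 (-0.59), and members at least 1.5-fold higher were 2 throughout. Scaling to ribosomal protein genes gave 2 members at least 1.5-fold lower and 2, not 4, higher without overlap, and a second quantile normalization gave 2, not 3, lower without overlap, as CCND1 then overlapped. At 2-fold 1 member was higher (CCNE2) and 1 lower (CDK6). The methods' t-test passed 4 members at its unadjusted threshold and 0 after adjustment. Over all genes limma called 0, but 499 higher and 893 lower with the block, 5 higher and 223 lower without trabectedin replicate 2, 1 lower without trabectedin replicate 1, and 161 lower after the ribosomal scaling. That scaling turned the split at an unadjusted p under 0.05 from 1635 higher and 1501 lower to 356 and 3028. The cause of these differences was not tested.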

Other observations

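Within each group, 8 of the 9 members had a lower value on replicate 2 than on replicate 1, and CDK6 a higher one. Of all genes, 25.4% were lower on replicate 2 in both groups. In control the distance of replicate 2 from replicate 1 was -0.40 on the log2 scale for CCNE2, -0.35 for CCND1 and 0.30 for CDK6, and with trabectedin it was -0.63, -0.32 and 0.90.
Genes close to CDK4, CCND3 and CDK2 had values of their own, named after they were seen. MARCHF9, a membrane ubiquitin ligase gene 2.79 kb from CDK4, had 7.46 and 7.04 in control and 8.39 and 7.52 with trabectedin (log2 fold change 0.70, limma adjusted p = 0.433), while TSPAN31, which overlaps CDK4, was at -0.16 (adjusted p = 0.656). MED20, a Mediator subunit gene 13.8 kb from CCND3, went from 8.33 and 8.42 to 8.95 and 8.77 (0.49, adjusted p = 0.202), and TAF8, a TFIID subunit gene 0.489 kb from CCND3, from 7.52 and 7.79 to 8.06 and 8.15 (0.45, adjusted p = 0.27). RAB5B, 1.16 kb from CDK2, was at 0.28 (adjusted p = 0.431), against 0.91 for CDK2. RB1-DT, a noncoding RNA 0.049 kb from RB1, had 5.48 and 5.97 in control and 4.81 and 5.64 with trabectedin (-0.49, adjusted p = 0.555), and its groups overlapped.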
